A study of Mus musculus with 4 samples.

Results

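The genes described here are 9 mouse genes that have been reported as targets of the muscle microRNAs miR-1 and miR-206: Hdac4, Gja1, Utrn, Fstl1, Met, Bdnf, Pola1, Twf1 and Mmd. They were found by symbol in the deposited gene table, where all 9 are listed among 28649 genes, and all 9 passed the filter on low counts. The RNA came from fibro-adipogenic progenitors (FAPs), mesenchymal cells of skeletal muscle that can turn into fat cells or matrix-producing fibroblasts, which were sorted by Sca1 and cultured. There were 2 libraries from miR-206 knockout (KO) cells and 2 from wild-type cells, whose genotype label is C57Bl/6. Cells of both genotypes were expanded in DMEM with 20% fetal bovine serum, 10% horse serum and 5 ng/ml FGF, then held for 48 hours in DMEM with 10% horse serum, with the supplement labelled PS in both media. The labels give neither the strain background of the KO mice, nor age or sex, nor how many animals the cells came from, so a strain difference and the loss of miR-206 cannot be told apart. The comparison asks whether any of the 9 is higher without the microRNA.

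A microRNA guides an Argonaute protein to messenger RNAs that pair with its seed, the bases near its 5' end, and such pairing usually lowers the amount of the target RNA, its translation, or both. A transcript that was held down is then expected to rise when the microRNA is lost. miR-206 and miR-1 are made in skeletal muscle cells, are induced as myoblasts differentiate, and share their seed, so a target reported for either can in principle be bound by the other. Mir206 itself and the miR-1 genes were not analysed here, and so the KO label has no check from the targeted gene, and the level of the microRNA in the wild-type cells is not known from these values.

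The mature miR-206 sequence and the seed matches in the targets are shown first, because they define what the absence of the microRNA could release. The microRNA lies on the plus strand of chromosome 1 at chr1:20679055-20679076 (RefSeq, build GRCm38.p6), and the capitals mark its seed, bases 2 to 8:
miR-206-3p: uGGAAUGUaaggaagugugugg

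The longest annotated 3' UTR of each gene (GENCODE M21, GRCm38) was searched on the sense strand for an 8mer match (ACATTCCA), a 7mer-m8 match (ACATTCC) and a 7mer-A1 match (CATTCCA), where each position counts once, under the longest form it fits. All 9 genes held at least 1 such match, 17 in all, and 4 of these were 8mers. The share of the 13483 tested genes with such a UTR that held a match was 19.1%, and 4.47% held an 8mer. The targets' 3' UTRs were longer than usual, with a median of 2000 bases against 1192, and 25.1% of the 7268 genes whose UTR length falls between the shortest and the longest of the 9 held a match. The genes were selected as reported targets, so their matches are a description of that selection.

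The windows below are the 22 bases that would lie opposite the microRNA, 5' to 3' on the mRNA, with the seed match in capitals. They show the 8mers of Gja1, Twf1 and Mmd and, for each other gene, its 7mer-m8 nearest the stop codon:
Gja1 8mer, nearer the stop codon: atccccgctaaaaaACATTCCA
Gja1 8mer, nearer the UTR end: aactaatttgtttgACATTCCA
Twf1 8mer: atcgaagtcaatgcACATTCCA
Mmd 8mer: gcagcaaacggtcaACATTCCA
Bdnf 7mer-m8: taaaagtctgcattACATTCCt
Met 7mer-m8: tgcccatcaggcaaACATTCCc
Hdac4 7mer-m8: tttctttcctcagaACATTCCt
Fstl1 7mer-m8: cagagggcaagcccACATTCCt
Pola1 7mer-m8: cagatgtttcactcACATTCCt
Utrn 7mer-m8: cactttacattattACATTCCt

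Gja1 was the only one of the 9 with 2 8mers, a feature of 0.267% of the tested genes. Its windows lie on the plus strand at chr10:56389158-56389179 and chr10:56390282-56390303, 477 and 1601 bases into a 3' UTR of 1720 bases. The Twf1 8mer lies on the minus strand at chr15:94578170-94578191, 219 bases before the UTR end, and Twf1 also holds a 7mer-A1 just after the stop codon. The Mmd 8mer lies on the plus strand at chr11:90277459-90277480, and Mmd also holds 2 overlapping 7mer-A1 matches. Bdnf holds 3 7mer-m8 matches, the one shown at chr2:109724351-109724372 on the plus strand. Met holds 2, of which the one shown is at chr6:17572346-17572367 on the plus strand and the other follows closely, at chr6:17572372-17572393.

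The Hdac4 window lies on the minus strand at chr1:91930059-91930080, with a 7mer-A1 close behind it. The Fstl1 window lies on the plus strand at chr16:37835883-37835904. The single matches of Pola1, at chrX:93305083-93305104, and Utrn, at chr10:12383784-12383805, are both on the minus strand.

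**Figure D1:**
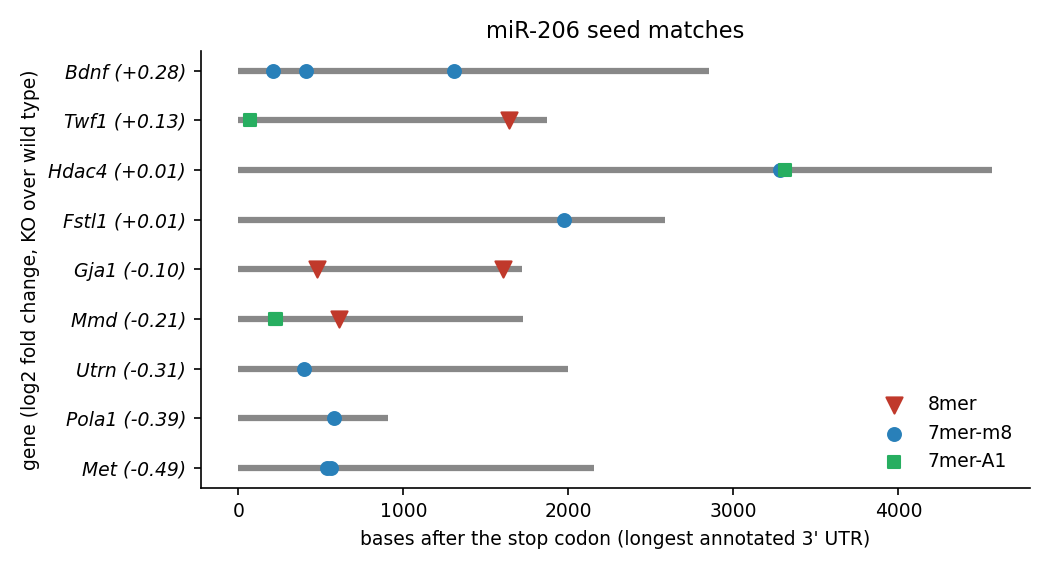
Seed matches to miR-206 along the longest annotated 3' UTR of each gene, from the stop codon (x axis, bases); genes are ordered by their log2 fold change of KO over wild type, printed beside each name. Gja1, with 2 8mers, has a fold change of -0.10, and Bdnf, with 3 7mer-m8 matches, one of 0.28.

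None of the 9 genes was higher in KO cells by the test over all genes (edgeR's quasi-likelihood test, Benjamini-Hochberg adjusted p under 0.05 over 14507 genes), and none was lower: 0 were called in either direction, and the smallest adjusted p was 0.226, for Pola1. DESeq2 called 0 and limma-voom called 0. Over all tested genes edgeR called 0.241% higher and 0.186% lower, or 0.427% in all, so that a count of 0 among 9 is what this background share would usually give. DESeq2 called 4.79% of genes and limma-voom 0.0965%. At an unadjusted edgeR p under 0.05, 0 of the 9 were higher and 2 were lower, Pola1 and Mmd, where 7.16% of all tested genes were higher and 7.18% lower, or 14.3% in all. The fold changes ran from -0.49 to 0.28 log2, 4 above and 5 below 0, with a median of -0.10 against 0.00 over all tested genes.

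The size of a rise that these libraries leave possible can be read from the 95% intervals of the fold changes, which are per gene and not adjusted for the number of genes. The highest upper end was 1.49-fold, for Bdnf, followed by 1.31-fold for Met and 1.24-fold for Fstl1. The upper ends for Hdac4, Gja1 and Twf1 were 1.19-fold, 1.18-fold and 1.24-fold, and that of Utrn was 1.07-fold. The Hdac4 counts pool mRNAs with and without a match, whose mix differed between libraries. Its interval therefore does not bound a rise of the mRNA with the matches alone. For Pola1 and Mmd the whole interval lay below no change. An exact permutation test of 2 against 2 libraries cannot give a two-sided p below 0.333, so the intervals and p-values rest on the fit over all genes. The labels do not say whether the 2 libraries of a genotype came from separate cultures or animals, and the p-values then measure only the spread between these libraries.

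**Figure D2:**
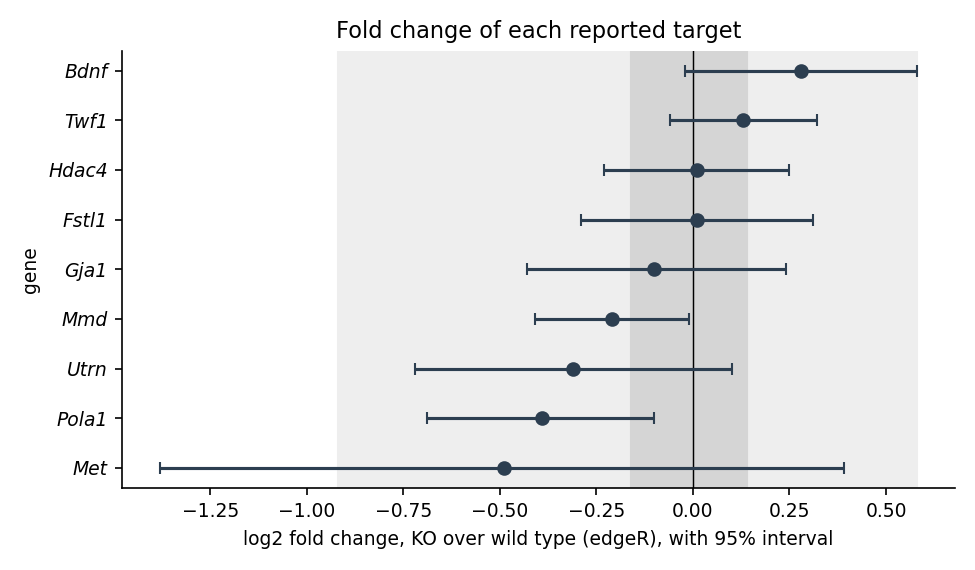
Log2 fold change of KO over wild type for each gene (x axis) with its 95% interval from edgeR; the darker and lighter bands hold the middle 50% and 90% of all tested genes. Every interval except those of Pola1 and Mmd includes 0, and all 9 point estimates lie within the lighter band.

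In TPM, a level per transcript length scaled to the library, the 9 genes spanned more than 2 orders of magnitude. Fstl1 was highest at 1155 to 1375 TPM over the 4 libraries, then came Gja1 at 144 to 185, Twf1 at 68.6 to 83.0 and Mmd at 44.1 to 57.6 TPM. These ranges do not overlap. Utrn (8.31 to 12.7 TPM), Hdac4 (6.19 to 10.1), Met (5.77 to 11.3) and Bdnf (6.00 to 7.94) followed. Among these, Utrn lay above Bdnf in each library, and the other ranges overlap, so that Hdac4 and Met have no clear place in the order. Pola1 was lowest at 3.56 to 5.17 TPM, below all of the others in range.

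**Figure D3:**
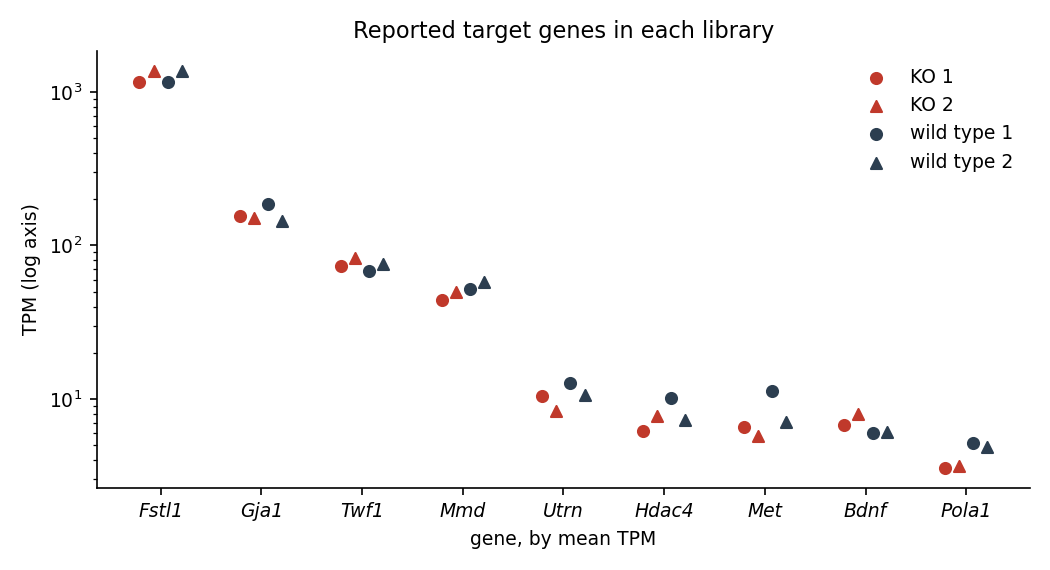
Level of each gene in TPM (y axis, log scale) in the 2 KO libraries (red) and the 2 wild-type libraries (dark), with circles for replicate 1 and triangles for replicate 2. Levels run from 3.56 TPM for Pola1 to 1375 TPM for Fstl1, and the gaps between genes are mostly far wider than those between genotypes.

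Hdac4 encodes a class IIa histone deacetylase that represses MEF2-driven muscle genes, and it is the best-known miR-1 target in myoblasts. On the scale of CPM (counts in 1e6 counts, with library sizes scaled by TMM) it stood at 21.4 and 22.2 in KO cells and at 22.4 and 21.1 in wild-type cells. The genotypes overlapped completely, with a fold change of 0.01 log2 (SE 0.10; edgeR adjusted p = 0.988). On the TPM scale the values were 6.19 and 7.80 in KO against 10.1 and 7.30 in wild type, which again overlap but lie lower in KO on average.

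The difference between these scales goes with the transcripts counted. Dividing counts by TPM gives the average effective length of the transcripts that the authors' quantification assigned to a gene, here set to bases with genes of a single annotated transcript. For Hdac4 this length was 5755 and 4882 bases in KO and 3736 and 4915 in wild type. The annotation has an Hdac4 mRNA of 8100 bases, which holds both seed matches, and one of 3937 bases, whose 3' UTR of 590 bases holds 0. The average was thus longest in KO replicate 1 and shortest in wild-type replicate 1, with the other two libraries alike. For the other 8 genes the lengths differed between libraries by at most 1.10 times.

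Met and Mmd also have annotated mRNAs without a match. Gja1, Twf1 and Utrn have such forms only among shorter transcripts with no annotated 3' UTR. Mmd, with mRNAs of 2677 bases (3 matches) and 1654 bases (0 matches), had implied lengths of 2677 and 2676 bases in KO and 2668 and 2667 in wild type. In each library this is the length of the mRNA with the matches. Met, with a mRNA of 6809 bases that holds 2 matches and shorter ones of 4663 and 4140 bases that hold 0, had implied lengths of 6630 and 6382 in KO and 6277 and 6046 in wild type, nearer to the long form in each library. In Fstl1 the implied lengths, from 3785 to 3798 bases, were those of its only protein-coding transcript, 3789 bases, which holds the match.

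The class IIa deacetylases and MEF2 factors listed beside Hdac4 gave 0 calls among 9 tested genes by edgeR (1 higher and 0 lower at an unadjusted p under 0.05), with a median of -0.11 log2. Hdac5, another class IIa deacetylase, had 111 and 109 CPM in KO and 94.0 and 91.4 in wild type, which is a fold change of 0.25 log2 (SE 0.07; edgeR adjusted p = 0.171). Mef2a, a muscle transcription factor that binds class IIa deacetylases, had 79.9 and 54.6 CPM in KO and 109 and 83.5 in wild type. Both KO values lay under both wild-type values, as for 24.4% of all tested genes, but the replicates of each genotype were also far apart. The edgeR adjusted p for Mef2a was 0.494. Ncor1, a co-repressor gene and the highest of the list at 106 TPM on average, had a fold change of -0.11 log2.

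Gja1 encodes connexin 43, the main gap-junction protein of mesenchymal cells, which myoblasts lose as they fuse. It had 292 and 277 CPM in KO and 344 and 264 in wild type. Both KO libraries lay between the wild-type libraries, and the log2 fold change was -0.10 (SE 0.13, edgeR adjusted p = 0.803). Without wild-type replicate 1, its highest library, the fold change turned to 0.11. Of 8 other connexin and junction genes tested, edgeR called 0 (0 at an unadjusted p under 0.05 in either direction), with a median of -0.02 log2. Panx1, a channel gene related to the invertebrate gap-junction family and the highest of these at 36.3 TPM, had a fold change of 0.02 log2. The connexin gene Gja5 was below 5 CPM in each library.

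Utrn encodes utrophin, the autosomal relative of dystrophin. It had 80.7 and 63.2 CPM in KO and 98.2 and 80.6 in wild type. KO replicate 1 reached the level of wild-type replicate 2, so the groups just overlap, and the log2 fold change was -0.31 (SE 0.16, edgeR adjusted p = 0.462). Among 13 genes of the dystrophin-associated complex edgeR called 0 (1 higher and 1 lower at an unadjusted p under 0.05), and the median was -0.18 log2. Dtnb, which encodes beta-dystrobrevin, stood at 26.7 and 27.1 CPM in KO cells and 19.4 and 18.6 in wild-type cells (log2 fold change 0.50, SE 0.09, adjusted p = 0.0869). Dag1, the dystroglycan gene and the highest of the list, had 398 and 402 CPM against 472 and 452 (log2 fold change -0.21, SE 0.07, adjusted p = 0.280), and Sntb2, a syntrophin gene, had a fold change of -0.18 log2.

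Met encodes the receptor of hepatocyte growth factor, which is carried by muscle stem cells and myoblasts. It had 26.3 and 21.5 CPM in KO and 42.2 and 25.1 in wild type. Wild-type replicate 1 stood apart and the other 3 libraries lay close together, so that the log2 fold change of -0.49 (SE 0.31, edgeR adjusted p = 0.566) was -0.07 without that library and -0.82 (adjusted p = 0.133) without wild-type replicate 2. In the 10 tested genes of HGF and MET signalling edgeR called 0 (1 higher and 1 lower at an unadjusted p under 0.05), with a median of 0.09 log2. Plau, the urokinase gene and the highest of this list, had 115 and 97.9 CPM in KO against 135 and 133, and Mst1r, which encodes the RON receptor related to MET, had 17.4 and 16.2 against 10.5 and 12.9. Their fold changes were -0.33 (SE 0.09) and 0.52 (SE 0.15) log2, neither past the threshold (edgeR adjusted p = 0.188 and 0.195). Spint2, a protease inhibitor gene, was below 1 CPM in each library.

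The libraries also differed in RNA of muscle cells, the cell type in which miR-206 and its targets are best known. The sum of 15 muscle-lineage markers was 2313 and 274 TPM in KO cells, against 4531 and 2565 in wild-type cells, and Myog, the differentiation factor of myoblasts, had 76.1, 6.35, 95.7 and 61.1 CPM in the same order. Of these markers 13 were tested, all with a fold change below 0 (median -1.47 log2), as 7318 of all 14507 tested genes had. Among the 13, edgeR called 0 (0 at an unadjusted p under 0.05). In these bulk samples fewer muscle cells and less RNA per cell cannot be told apart. Met and Utrn were highest in wild-type replicate 1 and lowest in KO replicate 2, as the markers were. The match is partial, since Met had 25.1 CPM in wild-type replicate 2 and 26.3 in KO replicate 1, while the marker sum was 2565 and 2313 TPM there. The share of all tested genes with these highest and lowest libraries was not counted. Without KO replicate 2 the fold changes were -0.35 log2 for Met and -0.14 for Utrn, and without KO replicate 1 they were -0.64 and -0.50. The part of muscle RNA in these values was not tested.

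**Figure D4:**
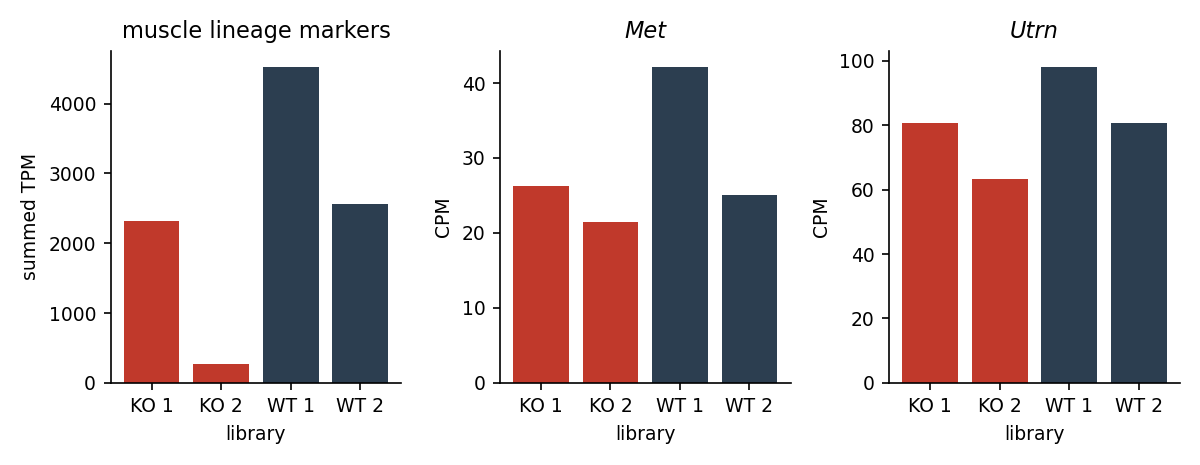
Summed level of 15 muscle-lineage markers (TPM, left) beside Met and Utrn (CPM, middle and right) in each library, with KO in red and wild type (WT) dark. In all 3 panels wild-type replicate 1 is highest and KO replicate 2 lowest.

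The sum of 12 defining markers of FAPs was 14647 and 14263 TPM in KO and 11630 and 15008 in wild type. Their levels were uneven, from 7115 TPM on average for the collagen gene Col3a1 down to between 3.25 and 4.25 TPM for Dpp4. Pdgfra, the receptor used to define these cells, had 1959 and 1902 CPM in KO against 1455 and 1520. Ly6a, which encodes the Sca1 protein used for the sort, went the other way, with 657 and 732 CPM against 882 and 1234 (log2 fold change -0.61, SE 0.18, edgeR adjusted p = 0.238). Of the 12 markers edgeR called 0. At an unadjusted p under 0.05, 4 were higher and 1 lower, where 7.16% and 7.18% of all tested genes were. Adipocyte markers summed to 800 and 546 TPM in KO and 1729 and 1216 in wild type. All 8 adipocyte markers were lower in both KO libraries, as 24.4% of all tested genes were, and edgeR called 1 lower, against 0.186% of all tested genes, the lipid droplet gene Cidec (log2 fold change -3.93, SE 0.51, adjusted p = 0.0468). Endothelial markers summed to between 10.3 and 16.1 TPM, pericyte markers to between 26.2 and 47.1, and hematopoietic and glial markers to at most 7.51 TPM. Adgre1, a macrophage marker, and Sox10, a glial marker, were below 0.1 TPM in each library.

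Bdnf, a neurotrophin gene expressed by muscle progenitors as well as neurons, was the member with the most positive fold change. It had 16.4 and 18.9 CPM in KO and 14.5 and 14.6 in wild type, from 568 and 576 against 516 and 653 estimated counts. Both KO libraries lay above both wild-type libraries, as they did for 23.8% of all tested genes, and the log2 fold change was 0.28 (SE 0.12, edgeR adjusted p = 0.380). It ranged from 0.18 to 0.38 over 13 other settings and was positive in each. The highest value, 0.38, came without KO replicate 1, which leaves only KO replicate 2 in that genotype. With the 10 tested genes of neurotrophins and their receptors the median was 0.17 log2, and edgeR called 0 (1 higher and 1 lower at an unadjusted p under 0.05).

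The genes of smallest p in that list were Sort1 and Sorcs2, which encode receptors of the Vps10p family that bind neurotrophin precursors. Sort1, the sortilin gene, stood at 23.8 and 20.8 CPM in KO cells and 56.5 and 43.7 in wild-type cells, which is a fold change of -1.17 log2 (SE 0.15; edgeR adjusted p = 0.0559). Sorcs2 had 61.0 and 61.7 CPM against 44.9 and 37.8, a fold change of 0.57 log2 (SE 0.10, adjusted p = 0.0748). Neither passed the threshold, although DESeq2 called both. Ntrk2, which encodes the BDNF receptor TrkB, had a fold change of -0.34 log2, and Furin, a convertase that cleaves the precursors and the highest of the list, had a fold change of 0.10 log2.

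Twf1 encodes twinfilin-1, which caps actin filaments and holds actin monomers. It had 128 and 140 CPM in KO and 118 and 127 in wild type. Both KO libraries lay above both wild-type libraries, as for 23.8% of all tested genes, but KO replicate 1 and wild-type replicate 2 were almost level. The log2 fold change was 0.13 (SE 0.08, edgeR adjusted p = 0.514). Twf1 overlaps the gene Irak4 on the other strand. Irak4 had 703 and 813 estimated counts in KO and 772 and 937 in wild type, against 4430, 4269, 4217 and 5666 for Twf1, and since the use of strand in the counting is not given in the sources used here, a share of reads may have been exchanged. The 12 other genes of actin filament turnover had a median of 0.02 log2, and edgeR called 0 (0 at an unadjusted p under 0.05). Cfl1, the cofilin gene and the highest at 1051 TPM, had a fold change of 0.04 log2, and the capping protein genes Capza1 and Capzb and the cofilin cofactor gene Wdr1 had 0.13, 0.12 and -0.13.

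Fstl1 encodes a secreted follistatin-like glycoprotein and was among the most expressed genes of these cells, above 99.9% of the tested genes in mean CPM. It had 2634 and 3052 CPM in KO and 2602 and 3060 in wild type. Replicate 1 was the lower library and replicate 2 the higher in both genotypes, and the log2 fold change was 0.01 (SE 0.12, edgeR adjusted p = 0.989). Of 8 tested genes of the follistatin and SPARC families edgeR called 0 (2 higher and 1 lower at an unadjusted p under 0.05). Sparcl1 stood at 121 and 107 CPM in KO cells and 174 and 168 in wild-type cells (log2 fold change -0.58, SE 0.08, adjusted p = 0.0548), and Fstl3, an inhibitor of activins, had 31.2 and 35.2 against 20.1 and 23.8 (0.59, SE 0.12, adjusted p = 0.103). Smoc2 had a fold change of 0.32 log2, and Sparc, the highest at 4621 TPM, of 0.06.

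Pola1 encodes the catalytic subunit of DNA polymerase alpha, which starts DNA strands in replication and was reported as a direct miR-206 target in differentiating myoblasts. It had 11.4 and 11.1 CPM in KO and 14.9 and 14.7 in wild type, from 394 and 339 against 531 and 656 estimated counts. The genotypes were clearly separated and replicates almost equal, and both KO values lay under both wild-type values, as for 24.4% of all tested genes. The log2 fold change was -0.39 (SE 0.12, edgeR adjusted p = 0.226), and it stayed between -0.46 and -0.37 in 13 other settings, with an adjusted p of at least 0.195.

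None of Pola1's listed partners at the replication fork was called. Of 15 tested genes of the polymerase alpha-primase complex and the fork, 12 had negative fold changes, as 7318 of all 14507 tested genes had. The median was -0.21 log2, and in 6 both KO values lay under both wild-type values, as for 24.4% of all tested genes. At an unadjusted edgeR p under 0.05, 0 were higher and 3 lower, where 7.16% and 7.18% of all tested genes were. These 3 were Pola2, the second subunit of the same polymerase, with 18.3 and 18.1 CPM in KO against 21.3 and 21.9, and the helicase subunit genes Mcm7 and Mcm4, with fold changes of -0.22 (SE 0.08) each (edgeR adjusted p = 0.281 and 0.296, and 0.342 for Pola2). Pcna, the sliding clamp gene and the highest of the list, had 59.9 and 62.2 CPM in KO and 58.2 and 63.6 in wild type.

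Mmd encodes a membrane protein of the PAQR family, first described in maturing macrophages. It had 71.0 and 78.2 CPM in KO and 82.5 and 90.3 in wild type. Both KO values lay under both wild-type values, as for 24.4% of all tested genes, by a margin smaller than the gap between replicates of either genotype. The log2 fold change was -0.21 (SE 0.08, edgeR adjusted p = 0.324). In the 7 other tested PAQR genes edgeR called 0 (0 at an unadjusted p under 0.05), with a median of -0.02 log2. Adipor1 and Adipor2, which encode adiponectin receptors, had fold changes of 0.12 and -0.10 log2, and Paqr4 had -0.26.

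Across the 4 libraries, the genes whose log2 CPM, centred on its mean, lay nearest to Pola1 were Palm3, Megf9 and Dusp3, at Euclidean distances of 0.015, 0.035 and 0.042 log2. Those nearest to Mmd were Pcdhb16, Col4a3bp and Mcm4, at 0.024, 0.025 and 0.027. Of 10563 genes compared, 49 lay within 0.1 of Pola1 and 189 within 0.1 of Mmd, so that such likeness is not particular to the genes named.

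A further 31 genes were listed as reported targets of miR-1 or miR-206. Of the 29 tested, 22 held a seed match, and edgeR called 0 higher and 1 lower. At an unadjusted p under 0.05, 6 were higher and 6 lower, where 7.16% and 7.18% of all tested genes were. Both KO values lay above both wild-type values in 10 and under them in 14, against 23.8% and 24.4% of all tested genes, and the median fold change was -0.05 log2. The gene that fell was Ccnd2, the cyclin D2 gene, which drives entry into the cell cycle. It had 142 and 153 CPM in KO and 224 and 223 in wild type, which is a fold change of -0.60 log2 (SE 0.07; edgeR adjusted p = 0.0409). This is against the direction asked about. The call was lost by limma-voom (adjusted p = 0.0734), without robust estimation (0.0892), on the TPM scales, and when any 1 of the 4 libraries was left out, where edgeR's adjusted p lay between 0.0937 and 0.146 and the fold change between -0.65 and -0.55.

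Tmsb4x, the thymosin beta-4 gene and the highest of this list, had 208 and 232 CPM in KO and 176 and 203 in wild type, a fold change of 0.22 log2 (SE 0.10, edgeR adjusted p = 0.384). Among the uncalled genes chosen here after their values were seen, Kcnj2, an inward-rectifier potassium channel gene reported as a miR-1 target in the heart, had the most positive fold change, 0.95 log2, from 8.35 to 16.2 CPM on average (edgeR adjusted p = 0.0705). DESeq2 called 6 of the 29, namely Ccnd2, Cnn3, Igf1, Kcnj2, Pax3 and Tagln2, of which Ccnd2 and Pax3 were lower and the other 4 higher in KO, where it called 4.79% of all tested genes. Of those 4, the edgeR fit as reported called 0. With no low-count filter, edgeR called Igf1, Kcnj2 and Tagln2 among them, where it called 491 genes over the whole table.

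Genes with several matches had fold changes on both sides of 0. Of the 6 with 2 or more, Bdnf, Twf1 and Hdac4 had fold changes of 0.28, 0.13 and 0.01 log2, and Gja1, Mmd and Met had -0.10, -0.21 and -0.49. Those with 1 match, Fstl1, Utrn and Pola1, had 0.01, -0.31 and -0.39. Over all tested genes, the 532 with 2 or more matches had a median fold change of 0.00 log2, with 1 called higher and 2 called lower, and the 36 with 2 or more 8mers had a median of 0.00 with 0 called. Both KO values lay above both wild-type values in 27.3% of genes with 2 or more matches and 27.8% of those with 2 or more 8mers. This share was 30.7% with 3 or more matches, 24.3% with any match and 24.0% with no match. The 114 genes with 3 or more matches had a median fold change of 0.01 log2. The matching shares with both KO values under both wild-type values were not counted, and UTR length was not matched. These medians and shares are given as descriptions, with no test.

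**Figure D5:**
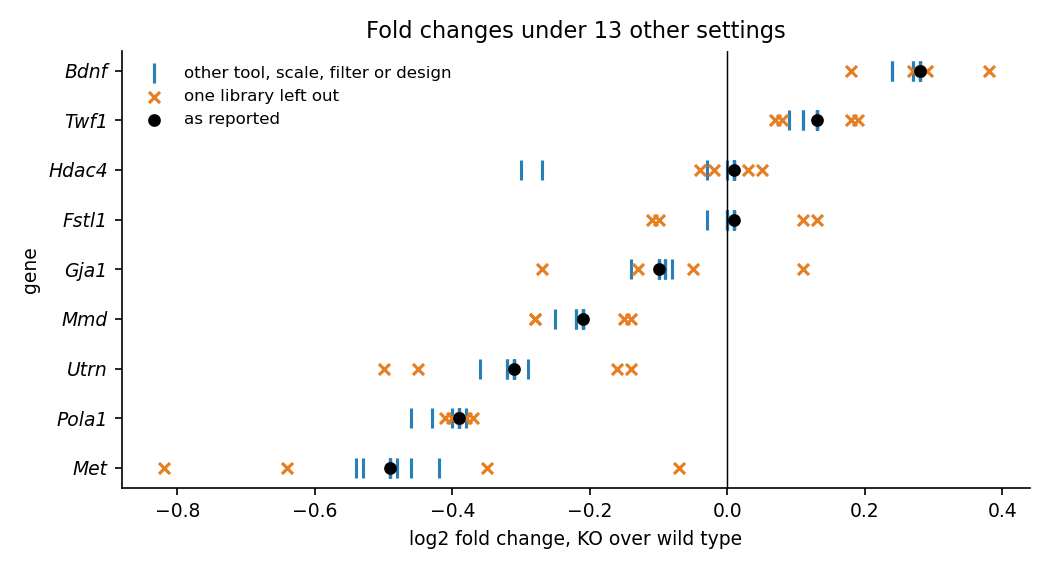
Log2 fold change of KO over wild type (x axis) for each gene as reported (black) and under 13 other settings, of which 4 leave out a library (orange) and the rest change the tool, scale, filter or design (blue). Bdnf and Twf1 stay above 0 and Mmd, Utrn, Pola1 and Met below 0 in all of them, while Hdac4, Fstl1 and Gja1 lie on both sides.

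The authors' deposited table gives its own log2 difference of mean TPM for each of the 9 genes, 3 above and 6 below 0. In the authors' deposited table the values were 0.28 for Bdnf, 0.11 for Twf1 and 0.00 for Fstl1. In the authors' deposited table Met, at -0.57, and Pola1, at -0.47, had the most negative values, and Hdac4 was at -0.31.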

How the data were processed

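RNA was measured in 4 libraries made with a stranded mRNA kit, per the labels' protocols. FastQC, kallisto and build mm10 are named, per the submitters' processing notes. Their versions, the annotation and the use of strand: not given in the sources used here. The authors deposited estimated counts per gene, which are not normalized, with totals from 30550235 to 44561117 per library, and TPM values beside them. The authors also deposited a log2 difference of genotype mean TPM.

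After rounding, the estimated counts were fitted with edgeR 4.0.16 in R 4.3.3 (two-sided quasi-likelihood test, TMM scaling, filterByExpr, robust estimation, Benjamini-Hochberg adjustment over 14507 genes). The fit was tested on simulated data. The standard error is the log2 fold change over the square root of F, and 95% intervals use the fit's degrees of freedom. Alternatives used DESeq2 1.42.0 and limma 3.58.1. Fits without a library kept the same genes. Replicates differed by far more than sampling noise, with a chi-square per gene of 36.1 in KO and 27.0 in wild type. Effective lengths were scaled on 754 genes of 1 annotated transcript, at least 1000 bases long and with at least 100 counts in each library. Between 89.1% and 91.0% of these came out within 10% of their annotated length.

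The 9 genes, the lists and the tests were chosen with earlier results of these data known. Genes named from each list were those called, or else the 3 of smallest unadjusted p, and in lists of partners the gene of highest mean TPM. Defining markers of cell types, such as Myog, Pdgfra and Ly6a, were named beside them. Genes named for likeness were the 3 nearest, of at least 5 CPM, to each of the 9 with an unadjusted p under 0.05. A few genes that this rule names are not reported here.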

Additional observations from a re-analysis of the deposited data

How the results depend on the processing

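In 13 other settings 0 of the 9 genes were called higher and 0 lower. Of their 117 fold changes in these settings, 108 kept their direction. Hdac4 turned to -0.03 log2 with library size alone, to -0.27 and -0.30 with limma on log2(TPM + 1) and log2(TPM + 0.1), and to -0.02 and -0.04 without KO replicate 2 and wild-type replicate 2. Fstl1 turned to -0.03 with library size alone and to -0.10 and -0.11 without KO replicate 2 and wild-type replicate 1, and Gja1 to 0.11 without wild-type replicate 1. Without a library, Fstl1 ranged from -0.11 to 0.13. The TPM scale counts transcript length, which for Hdac4 differed between libraries; the other causes were not tested. The median over the 9, -0.10, was -0.14 with library size alone, -0.22 on both TPM scales and between -0.15 and -0.07 without a library.

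The 62 genes called over the whole table became 695 with DESeq2, 14 with limma-voom, 133 with library size alone, 491 with no low-count filter, 11 without robust estimation, 7 and 6 on the TPM scales (pseudocounts 1 and 0.1), 265 with the replicate block and 6 to 76 without a library. The 1 other reported target called became 6 with DESeq2, 5 with no filter, 2 with the replicate block, and 0 with limma-voom, without robust estimation, on both TPM scales and without any library in turn. The labels number libraries 1 and 2 in both genotypes but do not say that a number marks a shared origin, and same-numbered libraries had a correlation of deviations of 0.187 over 14507 genes. With the replicate block, 4 of the 9 genes were lower and 0 higher at an unadjusted p under 0.05, and the smallest adjusted p was 0.0860, for Utrn. The share of all tested genes past that unadjusted p with the block was not counted, so the 4 cannot be set against a background. Without KO replicate 1, 1 of the 9 was higher at an unadjusted p under 0.05, Bdnf. Of 92 partner genes, 0 called as reported, DESeq2 and the fit with no filter called 6 (Dtnb, Fstl3, Smoc2, Sorcs2, Sort1 and Sparcl1), library size alone 2 (Sort1 and Sparcl1), the replicate block 5 (Fstl3, Mef2c, Sort1, Sparcl1 and Mef2a, the last with an edgeR adjusted p of 0.0408), and the fit without wild-type replicate 2 called Sort1.

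With 2 libraries a genotype, the unadjusted intervals of the edgeR fit as reported still hold a rise for 7 of the 9 genes. Those of Pola1 and Mmd hold none, but their edgeR adjusted p was 0.226 and 0.324. At an unadjusted p under 0.05, DESeq2 had 1 of the 9 lower and limma on log2(TPM + 0.1) had 0. The share of all tested genes past that p in these settings was not counted, so these counts cannot be set against a background.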
